A study of Mus musculus with 35 samples.

Results

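*Gabra2*, *Gabra3*, *Gabra4*, *Gabra5*, *Gabra6*, *Gabrd* and *Gabrg1* encode subunits of the GABA-A receptor, and they were taken by gene symbol. They are 7 of the 16 subunit genes described here and of the 55356 genes of the annotation on which the reads were counted. RNA-seq was made from adult C57BL/6J mice without any treatment named in the labels, as 29 libraries in 10 groups of one tissue and sex. The groups were female and male brain, female and male cerebellum, female and male heart, female and male colon, ovary and testis, each with 3 libraries except male heart with 2. Ribosomal RNA was depleted from total RNA before strand-specific libraries were built, and Iso-seq (full-length cDNA read on the PacBio platform) of gonads and of pooled somatic tissues supplied part of the gene models. The labels do not say which part of the brain was taken, nor which libraries share an animal, so the p-values measure the spread between these libraries.

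GABA-A receptors are chloride channels opened by GABA, the main inhibitory transmitter of the adult brain, and each is built of several subunits around a central pore. Alpha and beta subunits form the GABA sites, a gamma subunit beside an alpha subunit forms the benzodiazepine site, and the delta subunit takes the place of gamma in receptors outside the synapse that carry a tonic current. The alpha subunit differs between regions: alpha6 is known from cerebellar granule cells, alpha5 from hippocampus and alpha4 with delta from thalamus, striatum and dentate gyrus.

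The library totals ran from 11742417 to 36194255 counts. One heart library stood apart before any subunit was considered. *Nppa*, which encodes atrial natriuretic peptide, reached 2310 CPM (read counts scaled to the library total) in female heart replicate 3 and 34.2 to 75.1 CPM in the other 4 heart libraries, while *Myh6*, a myosin heavy chain of heart muscle, was at 10839 CPM there and at least 20852 CPM in the others. The heart, colon, ovary and testis marker lists each summed highest in the tissue they name. The 5 Purkinje cell markers summed to between 1674 and 3075 FPKM (CPM per kilobase of the joined exons of a gene) in cerebellum and to between 94.8 and 145 FPKM in brain. The 6 forebrain excitatory neuron markers summed to between 54.4 and 84.8 FPKM in brain and to between 14.9 and 22.1 FPKM in cerebellum. In colon that list summed to between 25.0 and 37.3 FPKM. Of the 6, 4 stayed under 1 FPKM in every cerebellum library and 5 in every colon library, and 2 were at 0 in all colon libraries. The 5 choroid plexus markers varied most, from 24.3 to 1580 FPKM in brain and from 1039 to 3938 FPKM in cerebellum.

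All 7 genes are protein coding and lie on the minus strand of mouse genome GRCm38. *Gabrg1* (chr5:70751834-70842365), *Gabra2* (chr5:70959881-71095820) and *Gabra4* (chr5:71569736-71657985) stand in one row on chromosome 5, and *Gabrb1* follows on the plus strand 41909 bases beyond *Gabra4*. *Gabra5* (chr7:57407690-57509418) lies next to *Gabrg3*. *Gabra6* (chr11:42306437-42321072) lies next to *Gabrb2*. *Gabra3* (chrX:72432677-72656746) lies between *Gabre* and *Gabrq*, and *Gabrd* (chr4:155384980-155398112) stands 2463 counted genes away from the nearest other subunit gene on its chromosome.

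Iso-seq gave the counted model for 5 of the genes, and *Gabra6* and *Gabrd* were counted on ENSEMBL models. *Gabra4* had 8 Iso-seq transcripts and *Gabra3* had 6, against 3 for *Gabrg1* and 1 each for *Gabra2* and *Gabra5*. One *Gabra4* transcript is a single exon of 3095 bases at the 5' end of the gene, and with it the joined exons of *Gabra4* come to 6516 bases while its longest transcript has 3725 bases. The FPKM of *Gabra4* therefore rests on the length chosen more than that of the other genes. The exons of *Gabra5* share 148 bases with those of the antisense gene *Gm9962*. Whether strand was used in the counting is not given in the sources used here.

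RefSeq promoter windows (GRCm38.p6, 250 bases before to 50 bases after the annotated gene start) were matched for 6 of the 7 genes, all but *Gabrd*. The windows of *Gabra6*, the subunit gene highest in cerebellum relative to brain, and of *Gabra5* and *Gabra4*, which were higher in brain, are shown 5' to 3' on the strand of the gene. Capitals mark matches, on either strand, to TTGGC (part of the site of NFI factors), GGGCGG (a GC box), TATAAA, TGACGTCA (the cAMP response element) and GCGTGGGCG (an EGR site), none of which overlapped another in these windows.
Gabra6, chr11:42321023-42321322, minus strand: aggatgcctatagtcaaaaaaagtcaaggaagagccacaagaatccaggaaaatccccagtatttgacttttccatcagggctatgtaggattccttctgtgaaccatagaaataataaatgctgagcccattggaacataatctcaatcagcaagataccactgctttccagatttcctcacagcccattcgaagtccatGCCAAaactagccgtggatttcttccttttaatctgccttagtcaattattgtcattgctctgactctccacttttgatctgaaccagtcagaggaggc
Gabra5, chr7:57510010-57510309, minus strand: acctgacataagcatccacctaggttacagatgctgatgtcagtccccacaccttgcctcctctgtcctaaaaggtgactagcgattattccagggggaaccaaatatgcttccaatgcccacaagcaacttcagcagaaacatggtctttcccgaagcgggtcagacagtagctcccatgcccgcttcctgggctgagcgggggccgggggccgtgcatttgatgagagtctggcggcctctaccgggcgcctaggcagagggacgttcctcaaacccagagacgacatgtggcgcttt
Gabra4, chr5:71658259-71658558, minus strand: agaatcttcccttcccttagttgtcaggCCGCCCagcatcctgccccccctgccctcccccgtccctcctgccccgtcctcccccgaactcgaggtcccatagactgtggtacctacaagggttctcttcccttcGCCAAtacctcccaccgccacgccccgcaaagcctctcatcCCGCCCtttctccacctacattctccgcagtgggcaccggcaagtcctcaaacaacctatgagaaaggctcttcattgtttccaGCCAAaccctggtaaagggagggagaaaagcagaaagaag
The *Gabra6* window held 1 match, TTGGC on the opposite strand at position -49 from the gene start. The *Gabra4* window held TTGGC at positions -115 and 11 and GGGCGG at positions -222 and -74, all on the opposite strand. None of these letter strings was found in the *Gabra5* window. Of 32851 windows of the same length, 46.7% held TTGGC, 35.7% GGGCGG, 13.6% TATAAA, 1.79% TGACGTCA and 0.612% GCGTGGGCG. The *Gabra6* window held 2 CpG dinucleotides and was 42.0% G and C, against 13 CpG and 56.7% for *Gabra5* and 12 CpG and 58.7% for *Gabra4*, and the medians of all windows were 7 CpG and 52.7%. The model counted for *Gabra6* begins at the same base as the RefSeq gene start, while those of *Gabra4* and *Gabra5* begin 323 and 641 bases downstream of it.

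Brain and cerebellum carried different mixes of alpha subunit genes. Among the 7 genes, *Gabra3* had the highest mean level in brain, at 33.9 ± 4.23 FPKM (SD, n = 6). *Gabra4* followed at 20.4 ± 4.28 FPKM and *Gabra5* at 17.5 ± 1.69 FPKM. Then came *Gabrd* at 12.8 ± 3.54, *Gabra2* at 10.5 ± 2.27 and *Gabrg1* at 9.53 ± 1.76 FPKM, and *Gabra6* was last at 0.604 ± 0.624 FPKM. In cerebellum *Gabra6* came first, at 79.0 ± 20.4 FPKM. There *Gabrd* was at 11.1 ± 2.87, *Gabra2* at 9.73 ± 1.46, *Gabra3* at 9.32 ± 4.10, *Gabrg1* at 6.72 ± 3.41 and *Gabra4* at 6.69 ± 0.909 FPKM, levels that lay within each other's spread in part. *Gabra5* was last in cerebellum at 3.21 ± 1.97 FPKM. The place of *Gabra4* depends on the length used, since with the longest transcript it was at 35.7 ± 7.48 FPKM in brain, beside *Gabra3* at 35.4 ± 4.41, and at 11.701 ± 1.59 FPKM in cerebellum.

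**Figure D1:**
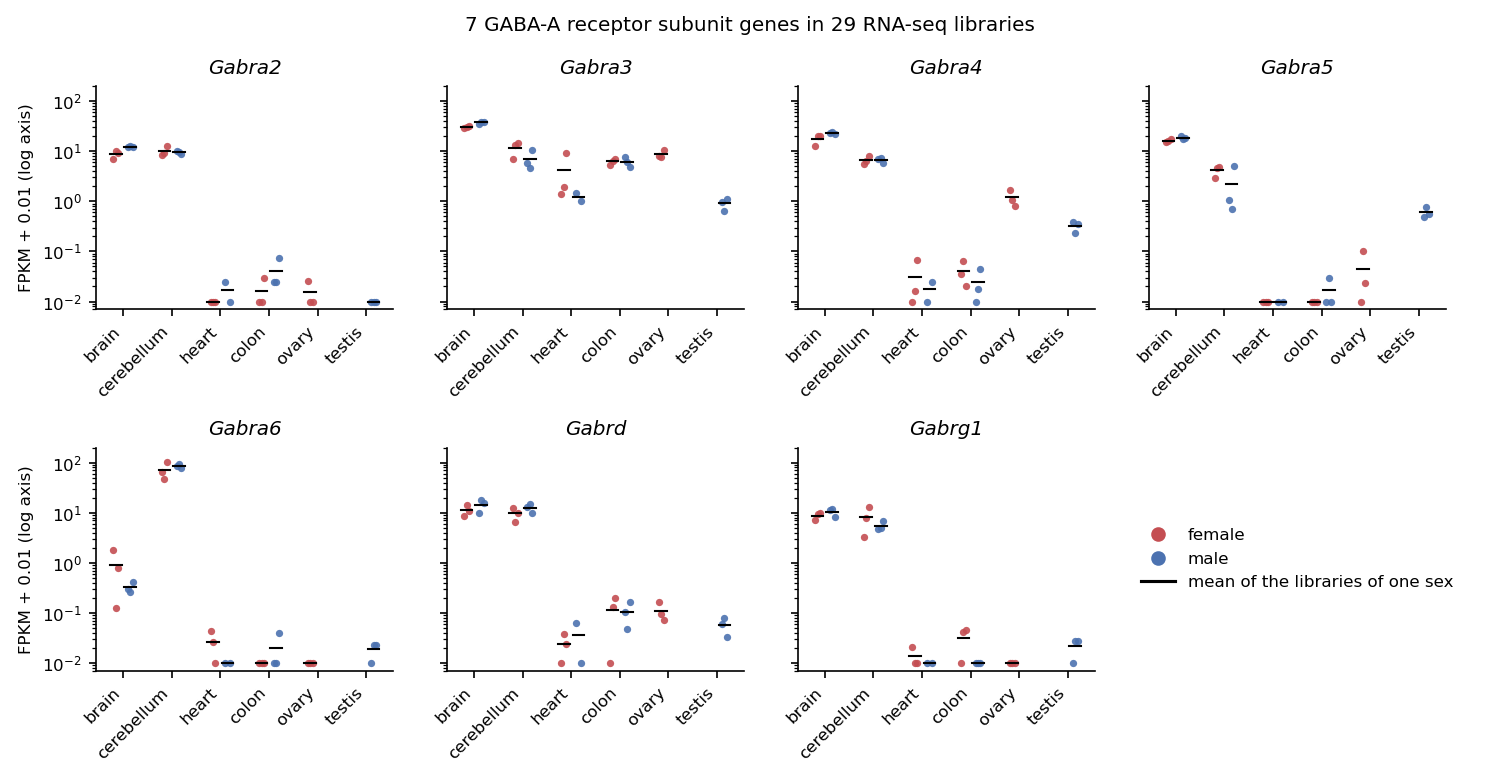
FPKM + 0.01 (log axis) of the 7 genes by tissue, with 1 point per library (red female, blue male) and a line at the mean of each sex. Gabra6 lies between 47.8 and 104 FPKM in cerebellum and at or below 1.80 FPKM in brain, and Gabra3 is the only 1 of the 7 above 0.5 FPKM in every library of every tissue.

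The summed FPKM of *Gabra2* to *Gabra6* in a library, here called the alpha pool, shows the mix without the level. Its shares are a description with no test. *Gabra6* took between 59.0% and 80.9% of the pool in the cerebellum libraries (median 72.6%) and between 0.148% and 2.74% in the brain libraries (median 0.380%). In brain most of the pool was *Gabra3*, *Gabra4* and *Gabra5*. *Gabra3* made up between 38.6% and 44.2% of the brain pool (median 40.9%) and between 3.97% and 16.1% of the cerebellum pool (median 8.85%). *Gabra5* made up between 18.8% and 23.5% of the brain pool (median 21.6%) and between 0.597% and 5.81% of the cerebellum pool (median 3.33%). *Gabra4*, at between 19.1% and 26.2% in brain (median 25.1%) and between 5.30% and 7.83% in cerebellum (median 6.32%), depended on the length used. With the longest transcript in place of all exons, its mean share was 35.5% in brain, level with *Gabra3* at 35.6%, and 10.4% in cerebellum. The mean share of *Gabra5* in brain was then 17.7%, against 21.3% with all exons. *Gabra2* took between 10.5% and 13.6% in brain (median 13.2%) and between 8.06% and 11.2% in cerebellum (median 8.94%). The brain and cerebellum ranges of *Gabra3*, *Gabra4*, *Gabra5* and *Gabra6* did not overlap, and those of *Gabra2* did.

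**Figure D2:**
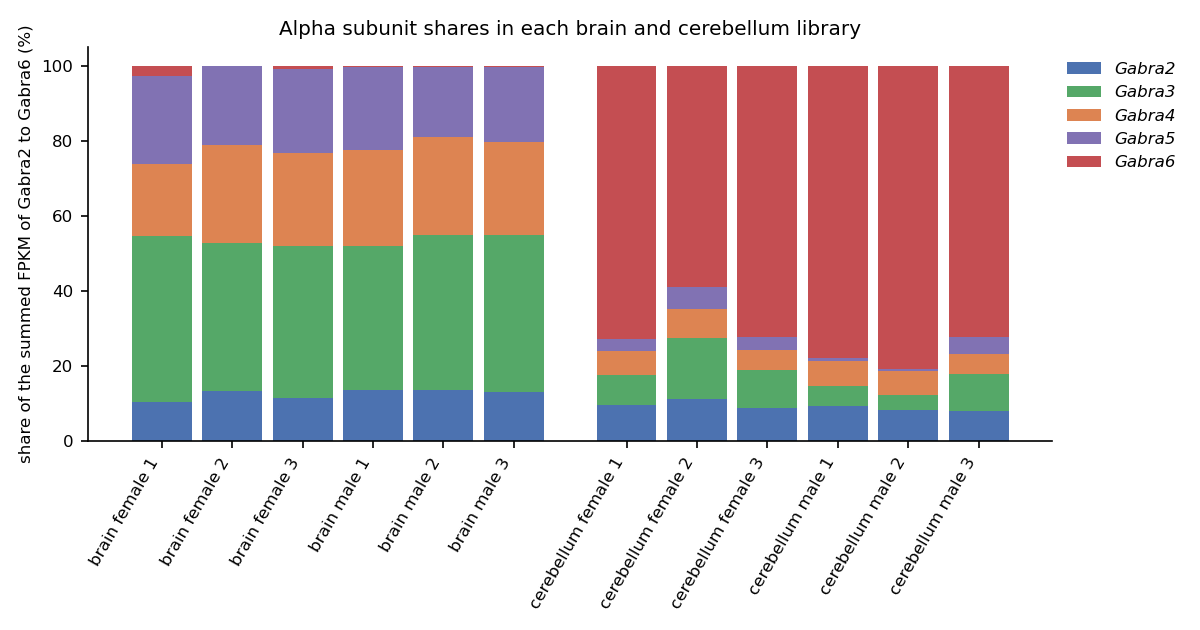
Share of each gene in the summed FPKM of Gabra2 to Gabra6 (percent, stacked bars), for each of the 6 brain and 6 cerebellum libraries. The bars are mostly Gabra3, Gabra4 and Gabra5 in brain and mostly Gabra6, at 59.0% or more, in cerebellum.

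Which subunit genes differ between the regions was tested by the quasi-likelihood test of edgeR, as brain minus cerebellum over both sexes, with Benjamini-Hochberg adjustment over 29911 genes. *Gabra3*, *Gabra4* and *Gabra5* were higher in brain and *Gabra6* was higher in cerebellum, 4 of the 7 genes, while 26.1% of all genes tested passed the same threshold of an adjusted p under 0.05 (15.3% higher in brain and 10.8% lower). The 6 brain and 6 cerebellum libraries did not overlap in CPM for the same 4 genes, and for 18.6% of all genes tested. The median log2 difference of the 7 genes was 0.67, and that of all genes was 0. In bulk tissue, fewer cells of a type and less RNA per cell cannot be told apart.

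*Gabra6*, the alpha subunit of granule cells, ran from 47.8 to 104 FPKM in the cerebellum libraries (median 81.7) and from 0.113 to 1.80 FPKM in the brain libraries (median 0.346). Every cerebellum library was above every brain library, and the mean FPKM was 131 times that of brain. The log2 difference was -7.09 (SE 0.41, edgeR adjusted p = 3.64e-11). It was the only 1 of the 7 genes with a lower level in brain.

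*Gabra5*, whose subunit is known from extrasynaptic receptors of the hippocampus, ran from 15.4 to 20.1 FPKM in brain (median 17.7) and from 0.694 to 5.03 FPKM in cerebellum (median 3.82). The brain libraries lay close together and the cerebellum libraries did not. The log2 difference was 2.64 (SE 0.36, edgeR adjusted p = 8.01e-06).

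*Gabra3*, an X-linked gene for an alpha subunit of benzodiazepine-sensitive receptors, ran from 28.9 to 39.1 FPKM in brain (median 33.7) and from 4.61 to 14.7 FPKM in cerebellum (median 8.85). The groups stood apart with a gap between 14.7 and 28.9 FPKM. The log2 difference was 2.04 (SE 0.26, edgeR adjusted p = 9.11e-07).

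*Gabra4*, which encodes a benzodiazepine-insensitive alpha subunit often joined with delta, ran from 12.5 to 24.5 FPKM in brain (median 21.2) and from 5.66 to 7.97 FPKM in cerebellum (median 6.72). The lowest brain library, female replicate 1, was still above the highest cerebellum library. The log2 difference was 1.73 (SE 0.21, edgeR adjusted p = 5.62e-07).

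*Gabra2*, *Gabrd* and *Gabrg1* did not pass the test. *Gabra2* ran from 6.85 to 12.8 FPKM in brain (median 11.0) and from 8.39 to 12.5 FPKM in cerebellum (median 9.36), with a log2 difference of 0.23 (SE 0.17, edgeR adjusted p = 0.372). *Gabrd*, the delta subunit, ran from 8.58 to 17.7 FPKM in brain (median 12.6) and from 6.52 to 14.6 FPKM in cerebellum (median 11.3), with a log2 difference of 0.35 (SE 0.24, edgeR adjusted p = 0.334). Both genes had overlapping groups. *Gabrg1*, a gamma subunit also known from glia, ran from 7.16 to 11.8 FPKM in brain (median 9.51) and from 3.31 to 12.9 FPKM in cerebellum (median 5.80). Its cerebellum libraries spanned the whole range of the brain libraries, mostly through female cerebellum replicate 3 at 12.9 FPKM. The log2 difference was 0.67 (SE 0.25, edgeR adjusted p = 0.0507), just outside the threshold, and without that library it was 0.91 (edgeR adjusted p = 0.00767). A block was also fitted on 5 brain and cerebellum pairs of libraries. They were matched by the first digit of a number the labels give each library without saying what it marks. The edgeR adjusted p was then 0.00825, and with the replicate block it was 0.0167, both under the threshold. Both fits used brain and cerebellum libraries alone. The 12 such libraries without a block also put it under the threshold, so the call cannot be credited to the block.

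**Figure D3:**
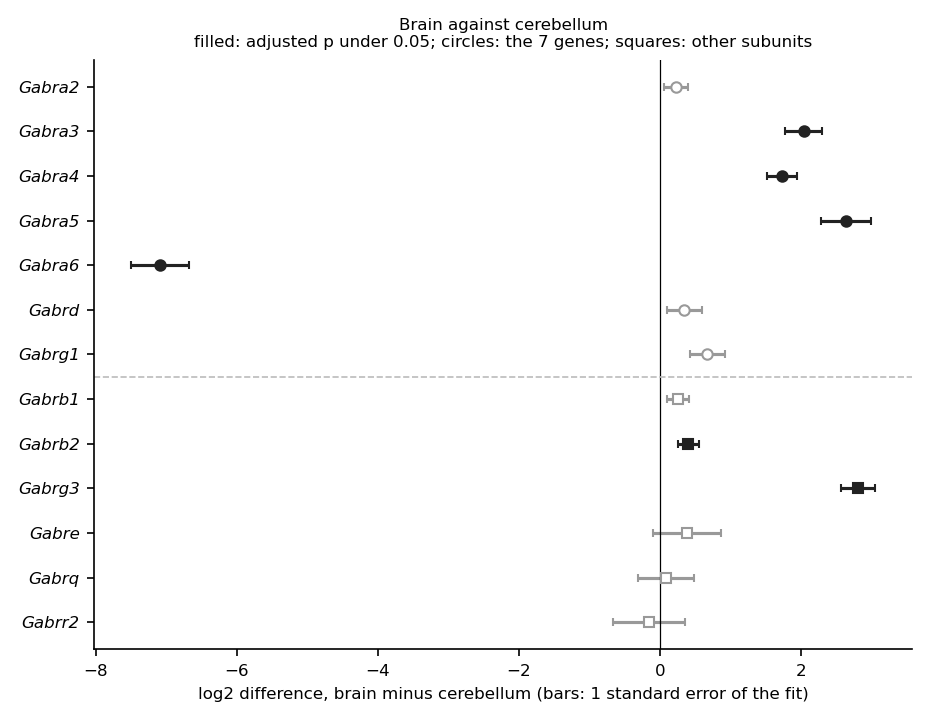
Log2 difference, brain minus cerebellum, with 1 standard error of the fit, for the 7 genes (circles) and 6 other subunit genes (squares), filled where the adjusted p was under 0.05. Gabra6 stands alone at -7.09, Gabra3, Gabra4 and Gabra5 lie between 1.73 and 2.64, and the other 3 of the 7 lie between 0.23 and 0.67.

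The partners of these alpha subunits were measured in the same libraries. Of the 9 other subunit genes, 7 passed the filter on low counts, 2 were higher in brain and none was lower, beside 15.3% of all genes tested higher in brain. *Gabrg3* differed by 2.81 on the log2 scale (SE 0.24) and *Gabrb2* by 0.40 (SE 0.15), with edgeR adjusted p values of 1.71e-09 and 0.0436, and the libraries of *Gabrb2* overlapped. *Gabrg3* lies next to *Gabra5*, and both genes were higher in brain. In the row on chromosome 5, *Gabra4* was higher in brain while *Gabrb1*, with a log2 difference of 0.26 (SE 0.15), *Gabra2* and *Gabrg1* did not pass. On chromosome 11, *Gabra6* was higher in cerebellum and its neighbour *Gabrb2* higher in brain. The ratio of *Gabra4* to *Gabrd*, whose products are known to assemble together, was between 1.38 and 2.33 in brain and between 0.447 and 0.973 in cerebellum, and that of *Gabra6* to *Gabrd* was between 5.11 and 10.5 in cerebellum. With the longest transcripts as lengths, the ratio of *Gabra4* to *Gabrd* was between 2.28 and 3.83 in brain and between 0.736 and 1.603 in cerebellum.

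Genes that make, move and sense GABA were measured in both regions as well. Of 9 genes for GABA synthesis, transport and breakdown, 1 was higher in brain and 2 were lower, with a list median of -0.35 on the log2 scale, beside 26.1% of all genes tested that passed in either direction. *Slc6a12*, a betaine and GABA transporter, was lower in brain, with a log2 difference of -1.45 (SE 0.33) and overlapping libraries. *Gad1*, which makes GABA, was lower in brain by the test too, with a log2 difference of -0.64 (SE 0.20). *Gad2*, the other enzyme of that step, was higher, with a log2 difference of 0.78 (SE 0.20) and overlapping libraries. Of 9 genes tested for anchoring and trafficking of the receptor, 2 were higher in brain and none lower (list median 0.10), again beside 26.1% of all genes. They were *Shisa7*, an auxiliary subunit, with a log2 difference of 2.74 (SE 0.24), and *Gabarapl1* with 0.55 (SE 0.11). *Gphn*, which encodes the scaffold protein gephyrin, had a log2 difference of 0.08 (SE 0.09). Of the chloride transporters that set the driving force through these channels, *Slc12a5*, which extrudes chloride, was higher in brain by 0.52 (SE 0.15), with overlapping libraries. *Slc12a2*, which loads it, was lower, with a log2 difference of -0.82 (SE 0.17). Among 5 GABA-B receptor genes, the auxiliary subunit *Kctd16* was higher in brain by 3.54 (SE 0.19), *Kctd12* was lower, with a log2 difference of -1.11 (SE 0.18), and the receptor genes *Gabbr1* and *Gabbr2* did not pass.

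The traces of *Gabra6* in brain were set beside other cerebellar genes. In CPM, *Gabra6* was at 4.47 in female brain replicate 1 and 1.91 in female brain replicate 3, and between 0.281 and 0.983 in the other 4 brain libraries. *Cbln3*, a granule cell gene, was at 10.3 and 3.74 CPM in the same 2 libraries and between 0.428 and 1.96 CPM in the others. *Fat2*, another granule cell gene, was highest in female brain replicate 1 too, at 25.8 CPM, but at 16.7 CPM in female replicate 2, the library lowest in *Gabra6*, it was above replicate 3 at 14.0 CPM. *Pcp2*, a Purkinje cell gene, was at 4.04 CPM in female brain replicate 1 and between 0.982 and 2.01 CPM in the other 5. The summed granule cell list (5 of 6 markers measured, none at 0) ran from 23.1 to 37.1 FPKM in brain and from 167 to 286 FPKM in cerebellum. *Drd1*, a gene of striatal neurons, was at 20.0 and 27.8 CPM in female brain replicates 1 and 3 and between 55.4 and 70.2 CPM in the others. Female brain replicate 1 was also lowest in *Gabra2*, *Gabra3*, *Gabra4*, *Gabra5*, *Gabrd* and *Gabrg1* among the 6 brain libraries. The part of these other cells in the brain values was not tested. With any 1 brain or cerebellum library left out, the log2 difference of *Gabra6* was between -7.58 and -6.83.

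The cerebellum libraries differed among themselves in a like manner. *Gabra5* was at 1.86 and 2.78 CPM in male cerebellum replicates 2 and 1 and between 7.88 and 13.5 CPM in the other 4 libraries. *Lamp5*, an interneuron gene, was at 4.61 and 2.20 CPM in the 2 and between 23.3 and 51.2 CPM in the 4, and *Sst* was at 2.33 and 5.19 CPM against 8.37 to 30.1 CPM. *Gabra3* followed the same split, at 18.0 and 22.8 CPM in the 2 libraries and between 27.6 and 57.3 CPM in the 4. *Gabra6* did not, at 234 and 210 CPM in the 2 and between 119 and 260 CPM in the 4. *Gabrg1* was at 18.6 and 17.8 CPM in the 2, between 12.6 and 48.8 CPM in the 4, so that its groups overlapped. Of the 5 interneuron markers listed, 3 were higher in brain, 1 (*Pvalb*) was lower and 1 did not pass, beside 26.1% of all genes tested. The list summed to between 265 and 342 FPKM in brain and between 659 and 961 FPKM in cerebellum, so *Lamp5* and *Sst* do not stand for it. The part of cells outside the cerebellar cortex in the library values was not tested. With 1 brain or cerebellum library left out the log2 difference of *Gabra5*, brain minus cerebellum, was between 2.42 and 3.34, and the highest value was that without male cerebellum replicate 3.

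**Figure D4:**
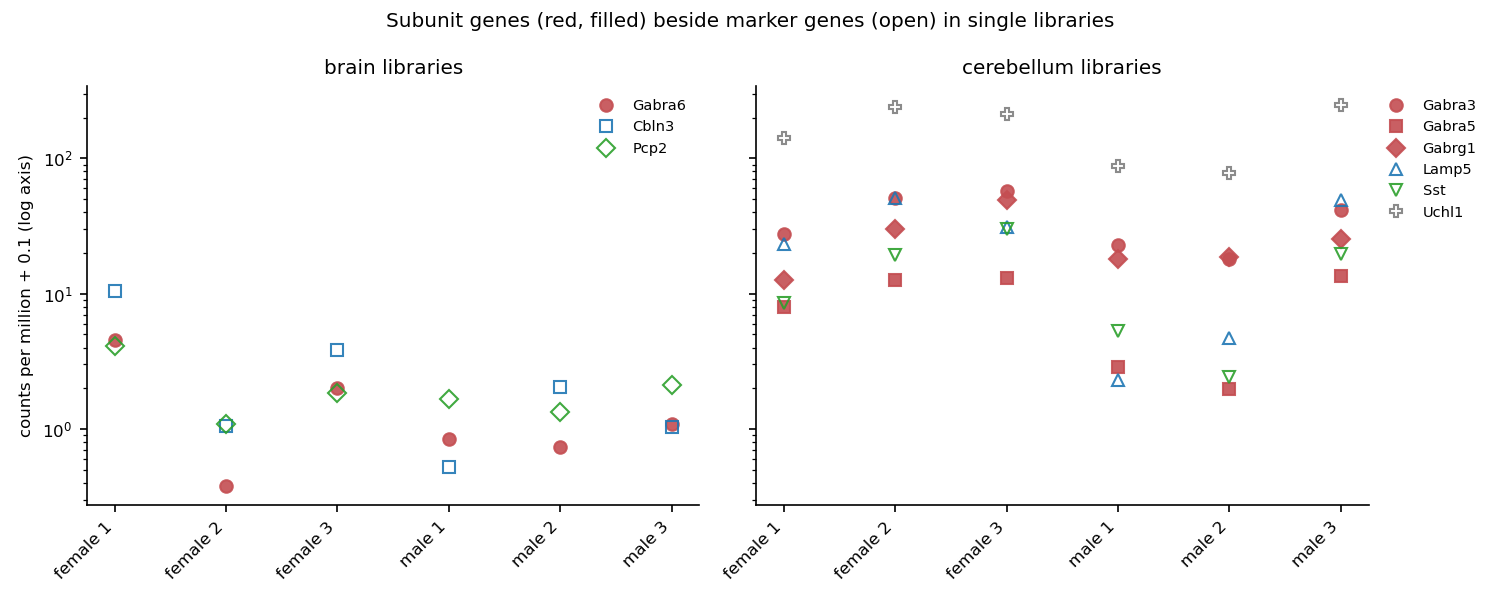
CPM + 0.1 (log axis) of subunit genes (red, filled) and marker genes (open) in each brain library (left) and each cerebellum library (right), named by sex and replicate. In brain, Gabra6 and Cbln3 are highest in female replicate 1, and in cerebellum Gabra5, Lamp5 and Sst are lowest in male replicates 1 and 2.

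Both sexes were sampled in brain and cerebellum, and 0 of the 7 genes passed the test for a sex difference in either region or for a difference between the regions in that effect. Of all genes tested, 0.0368% passed in brain, 0.0301% in cerebellum and 0% for the difference between regions, by edgeR. At an unadjusted p under 0.05, 2 of the 7 stood out in brain, 0 in cerebellum and 2 for the difference, beside 4.83%, 3.06% and 3.98% of all genes tested, and DESeq2 called 0 in each. *Gabra2* in brain was at 6.85, 10.1 and 9.18 FPKM in female replicates 1 to 3 and at 12.2, 12.8 and 11.9 FPKM in the male replicates. The female libraries were all below the male ones, with a log2 difference, female minus male, of -0.57 (SE 0.24, edgeR adjusted p = 0.995). *Gabra6* in brain was at 1.80, 0.113 and 0.766 FPKM in the female and 0.297, 0.255 and 0.395 FPKM in the male replicates, groups that overlapped, with a log2 difference of 1.41 (SE 0.55, edgeR adjusted p = 0.982), and of 0.43 without female replicate 1. The other 2 cases were the differences between regions of *Gabra6*, at 1.68 (SE 0.70) and at 0.70 without female brain replicate 1, and *Gabra3*, at -1.08 (SE 0.50), each with an edgeR adjusted p of 1. Without male cerebellum replicate 3, *Gabra5* was called higher in female than in male cerebellum, with a log2 difference of 2.26 (SE 0.38, edgeR adjusted p = 0.0244). That comparison sets the 3 female libraries, with *Lamp5* at 23.3 to 51.2 CPM, against male replicates 1 and 2, with *Lamp5* at 2.20 and 4.61 CPM.

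Outside brain and cerebellum the 7 genes fell into 2 sorts, those found only as traces and those with a level of their own. The test of brain and cerebellum against the mean of the logs of heart, colon, ovary and testis is given for *Gabra3* alone, the only 1 of the 7 with counts in every library, and 34.8% of all genes tested were higher in brain and cerebellum by it (62.2% passed in either direction). The log2 difference of *Gabra3* was 2.37 (SE 0.17, edgeR adjusted p = 3.82e-12). The other 6 had libraries at 0 and passed the filter on low counts through brain and cerebellum, so that no call, difference or median is given for them. Of all counts of a gene over the 29 libraries, 19.0% lay outside brain and cerebellum for *Gabra3*, 2.47% for *Gabra4* and 1.65% for *Gabra5*. For *Gabrd* it was 0.586%, and for *Gabrg1*, *Gabra2* and *Gabra6* it was 0.0902%, 0.0708% and 0.0210%. Totals differ between tissues, so these shares describe the libraries as sequenced.

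*Gabra3* was found in every library of every tissue. It was at 7.99, 7.71 and 10.8 FPKM in ovary replicates 1 to 3, within the range of the cerebellum libraries. In colon it ran from 4.85 to 7.51 FPKM (median 6.34), below every ovary library. In testis it was at 0.947, 0.639 and 1.13 FPKM. In heart it was at 1.36 and 1.90 FPKM in female replicates 1 and 2 and at 1.45 and 0.995 FPKM in male replicates 1 and 2, but at 9.09 FPKM in female replicate 3, the library with high *Nppa*. Heart and colon ranges overlapped through that library alone.

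Each non-neural tissue was tested against the mean of the logs of the others. Results are given for *Gabra3* here and for *Gabra4* below. No count over the 7 genes is given, since several of them had groups at or near 0 counts. Of all genes tested, 40.8%, 68.7%, 55.2% and 51% passed in ovary, testis, colon and heart in either direction. *Gabra3* was higher in ovary by 1.37 on the log2 scale (SE 0.26, edgeR adjusted p = 0.000119) and in colon by 1.09 (SE 0.23, edgeR adjusted p = 0.000184), and lower in testis, with a log2 difference of -2.17 (SE 0.34, edgeR adjusted p = 3.10e-06). In heart the log2 difference was -0.29 (SE 0.26, edgeR adjusted p = 0.405), and without female heart replicate 3 it was -0.70 (edgeR adjusted p = 0.00674). The neuronal gene *Snap25* was at most 0.721 CPM in ovary and 0.699 CPM in heart and between 5.96 and 13.4 CPM in colon, beside 845 CPM or more in brain and cerebellum, while *Gabra3* in ovary was at 30.0 to 42.0 CPM. The 3 measured pan-neuronal markers summed to between 1.141 and 1.202 FPKM in ovary, with none at 0 in every ovary library, and to between 8.55 and 14.5 FPKM in colon. The 6 enteric neuron and glia markers summed to between 21.2 and 46.1 FPKM in ovary (1 of them at 0 in every ovary library and 4 under 1 FPKM) and to between 16.2 and 23.4 FPKM in colon, ranges that overlapped. One of them, *Uchl1*, was at 23.6, 29.7 and 52.8 CPM in ovary and between 11.3 and 17.9 CPM in colon. The part of such cells in the *Gabra3* values was not tested.

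*Gabra4* was the next most widespread. It was at 1.70, 1.05 and 0.814 FPKM in ovary replicates 1 to 3 and at 0.383, 0.228 and 0.344 FPKM in testis replicates 1 to 3. In heart and colon it reached at most 0.0575 and 0.0539 FPKM, with 12 counts in all 5 heart libraries together, 9 of them in female replicate 3, and 13 in the 6 colon libraries. In the same tests it was higher in ovary (edgeR adjusted p = 1.97e-11) and in testis (edgeR adjusted p = 2.84e-07). The test averages logs, so the near-zero heart and colon values weigh on it, and testis, at a mean of 0.318 FPKM, was below every ovary library and above every heart and colon library. It was lower in heart and in colon by the test, with edgeR adjusted p values of 1.09e-05 and 9.05e-05. Leaving out male heart replicate 2 left male heart with 0 counts and ended the call in colon (edgeR adjusted p = 1), since the mean of logs then has no finite value, and at these counts the fitted differences in heart and colon are not given.

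*Gabra5* was found in testis, at 0.471, 0.771 and 0.557 FPKM in replicates 1 to 3 (36 to 64 counts), and it was listed at 0 in all 5 heart libraries. In colon it had 1 count over 6 libraries and in ovary 7 counts over 3, 6 of them in 1 library. The highest testis library, at 0.771 FPKM, overlapped the lowest cerebellum library, at 0.694 FPKM. The test of testis against the mean of heart, colon and ovary is not used for it. Heart and female colon were at 0 counts, so that the mean of logs has no finite value. The antisense gene *Gm9962*, which shares 148 exon bases with it, was at 0.422, 0.614 and 0.520 CPM in the same testis libraries, where *Gabra5* was at 1.27, 2.07 and 1.495 CPM, and its part in these counts was not tested. *Gabrb1* was also measured in testis, at a mean of 0.253 FPKM.

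*Gabra2*, *Gabra6*, *Gabrg1* and *Gabrd* stayed at or near the limit of detection outside brain and cerebellum. A count of 0 allows up to 3 counts, which for *Gabra6* in the shallowest library of each tissue is between 0.0424 and 0.103 FPKM, a limit that covers counting error only. Over the 17 libraries, *Gabra6* had 6 counts, *Gabra2* had 8 and *Gabrg1* had 9, and no library held more than 3 of any. *Gabrd* had 64 counts, at most 8 in a library, and its highest level was 0.189 FPKM in colon. *Gabra2* was called in colon on 6 counts over 6 libraries, 3 of them in 1 library. Female heart and testis were at 0 counts, and ovary and male heart had 1 count each. The call held in 8 of 17 fits with 1 library left out and is not used. At these counts no level of *Gabra2*, *Gabra6* or *Gabrg1* could be told from 0.

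**Figure D5:**
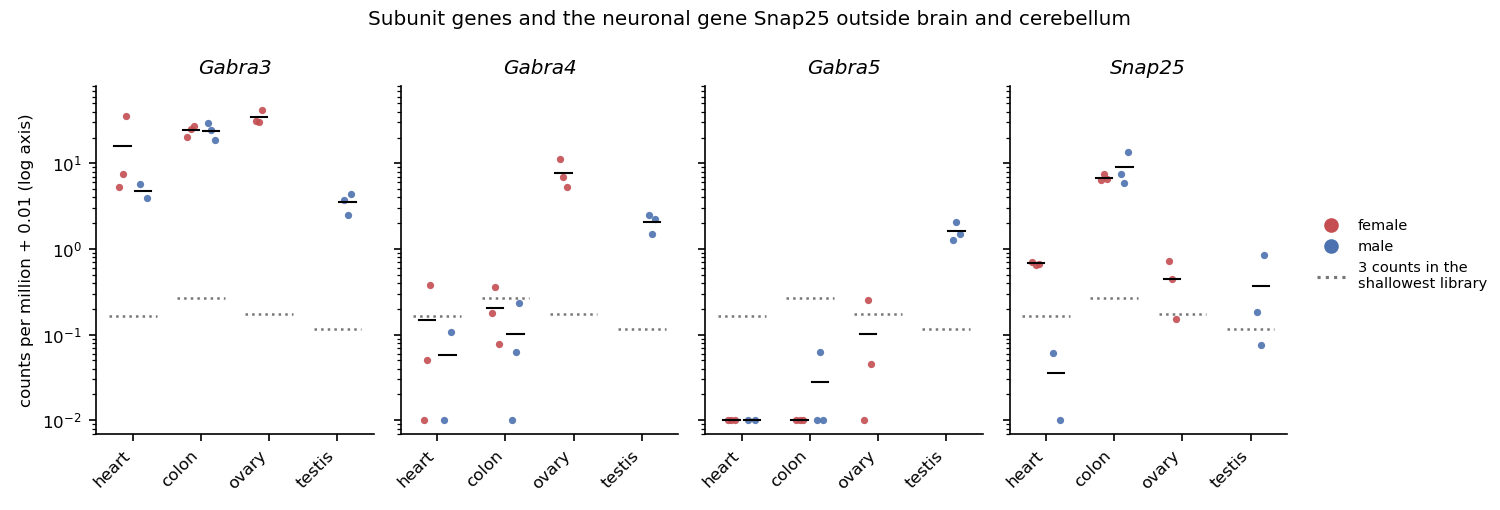
CPM + 0.01 (log axis) of Gabra3, Gabra4, Gabra5 and the neuronal gene Snap25 in heart, colon, ovary and testis, with 1 point per library, a line at each sex mean and a dotted line at 3 counts in the shallowest library of the tissue. Gabra3 is above the dotted line in all 17 libraries, Gabra4 in all ovary and testis libraries and Gabra5 in all testis libraries, and female heart replicate 3 is the highest heart library for Gabra3.

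Tau, the tissue specificity index of the study (0 for equal levels in all tissues and 1 for a single tissue), summarised the 6 tissue means. It was 0.998 for *Gabra6*, 0.956 for *Gabra5* and 0.919 for *Gabra4*. The 3 genes that did not pass between brain and cerebellum had lower values than these, 0.858 for *Gabrg1*, 0.822 for *Gabrd* and 0.814 for *Gabra2*. *Gabra3* was at 0.833 although it was found in every tissue, since its brain level was high.

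The genes nearest in pattern were ranked by the root mean square difference of log2(FPKM + 0.1), centred on each gene, over the 10 group means and among 17700 other protein-coding genes. *Gabra6* was nearest to *Ppp1r17* (0.25), a Purkinje cell gene, then *Dao* (0.56) and *Cbln3* (0.63). *Gabra5* was nearest to *Mpped1* (0.37), *Rlbp1* (0.40) and *Vstm2a* (0.46), and *Gabra3* to *Gng2* (0.31), *Tmem158* (0.36) and *Fam49a* (0.38). *Gabra4* was nearest to *Plppr4* (0.25), *Cnih2* (0.54) and *Grid1* (0.56). *Gabra2* was nearest to 2 loci of *Fut9* (0.14 and 0.23) and to *Iqsec3* (0.24), *Gabrd* to *Frmpd4* (0.23), *Pak7* (0.28) and *Pclo* (0.29), and *Gabrg1* to *Pou3f2* (0.14), *Fut9* (0.25) and *Olig2* (0.26). The likeness is a description over 10 group means, and all genes share the same libraries.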

How the data were processed

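Whole-number read counts per gene for 29 libraries were deposited by the authors without normalization, and all 29 count columns were used as deposited. Per the labels, the submitters' processing notes name HISAT2 2.0.5, featureCounts 1.6.3, FastQC 0.11.8, MultiQC 0.9 and build mm10 (the UCSC name of GRCm38). Only uniquely mapped reads were kept by the authors, on an annotation that joined Iso-seq transcripts with the ENSEMBL genes that none of them overlapped. Symbols were taken from GENCODE M21 through the deposited map of ENSEMBL genes to Iso-seq loci.

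Library totals ran from 11742417 to 36194255 counts. FPKM was computed as CPM per kilobase of joined exons. Differences were tested in R 4.3.3 with edgeR 4.0.16 (quasi-likelihood, TMM, filter on low counts by group), in one fit of all 29 libraries with a mean for each of the 10 groups, with Benjamini-Hochberg adjustment over 29911 genes and a threshold of 0.05. SE is the log2 difference over the root of the F statistic. DESeq2 1.42.0 was an alternative. The fit was tested on simulated counts for brain against cerebellum over 29911 genes, where it recovered 94% of genes changed 2-fold and 100% of those changed 4-fold, and 6.28% of its calls were false. For female against male in brain it recovered 44% and 100%, with 3.36% of calls false. The simulated counts had the same spread for all genes and the same mean of a gene in all tissues. Only genes above a low level were changed. These values hold for that simpler setting and are not the recovery or false call rate in these libraries.

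The members, gene lists and tests were chosen with earlier results of these data known. Named by rule were the 7 genes, the other subunits, up to 3 genes each way per list with the largest called difference and libraries that do not overlap, and the 3 nearest genes in pattern. *Gad2*, *Slc6a12*, *Gphn*, *Slc12a5*, *Gabbr1*, *Gabbr2*, *Gm9962*, *Nppa*, *Myh6*, *Fat2*, *Uchl1*, *Drd1* and *Snap25* were named after their values were seen. *Gabarap*, *Neurod1*, *Syt1* and *Tubb3* were left out, since their reads were counted under loci that join several genes. Some other listed genes are not reported here, and counts, medians and shares were computed without them.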

Additional observations from a re-analysis of the deposited data

How the results depend on the processing

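For brain against cerebellum, *Gabra3*, *Gabra4*, *Gabra5* and *Gabra6* kept their direction and passed under 8 alternatives and each of 12 left-out libraries, and the count of genes that passed was 4 or 5. The gene that was added was *Gabrg1*, whose adjusted p was 0.0471 by DESeq2, 0.0441 with the 12 brain and cerebellum libraries alone, 0.0331 in males and 0.00825 with a block on 5 pairs by the number of the library, and with 1 library left out its log2 difference was between 0.49 and 0.91. *Gabra2* turned to -0.0801 in females alone and did not pass, and *Gabrd* turned to -0.0249 against male cerebellum replicates 1 and 2 alone. That setting, and one without female brain replicates 1 and 3, were chosen after the values were seen, on libraries that are extreme in *Gabra5*, *Gabra3* or *Gabra6*, so their calls are not given. Female against male in cerebellum gave 0 to 1 genes with 1 library left out. For heart and for colon against the other non-neural tissues, the number of the 7 genes that passed moved with the method and with the library left out. Genes with groups at 0 counts entered that number, so it is not given.

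With 3 libraries in a group, correlations cannot settle whether replicate numbers pair the samples. Those of brain with cerebellum ran from -0.03 to 0.08 for the same number. For different numbers within a sex they ran from -0.07 to 0.08. With the replicate block 5 genes passed, *Gabrg1* among them with a log2 difference of 0.68 (adjusted p = 0.0167), and 9599 genes of all passed against 7796 without it. Among the 7 genes, no other call for brain against cerebellum differed between these fits.

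Shares of the alpha pool moved with the length used. With the longest transcript, mean brain shares were 10.5% for *Gabra2*, 35.6% for *Gabra3*, 35.5% for *Gabra4* and 17.7% for *Gabra5*, and *Gabra4* was at 10.4% in cerebellum. From counts without length they were 10.5%, 37.9%, 37.6% and 13.5% in brain, and in cerebellum 10.9% for *Gabra2*, 13.8% for *Gabra4* and 61.0% for *Gabra6*. Outside brain and cerebellum the depth of 11742417 counts in the shallowest library limits what can be said of *Gabra2*, *Gabra6* and *Gabrg1*.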

Other observations

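Other subunit genes than the 7 had their highest mean outside brain and cerebellum. *Gabrr2*, a rho subunit known from the retina, had its highest mean in heart, where it ran from 0.417 to 1.31 FPKM over 5 libraries (median 1.05), against 0.0973 to 0.720 FPKM in brain and 0.118 to 0.631 FPKM in cerebellum, ranges that overlapped. *Gabrr3*, another rho subunit, was at 0.214 to 0.266 FPKM in the 3 testis libraries and had 6 counts over the 6 brain libraries, and its exons share 279 bases with the testis lincRNA *1700022E09Rik* on the other strand, which was at 1.79 to 2.35 CPM in testis. *Gabre*, the epsilon subunit next to *Gabra3* on chromosome X, was at 0.314 to 0.738 FPKM in ovary and at 0.950 FPKM in female heart replicate 3, the library in which *Gabra3* was also high, against 0.0754 to 0.133 FPKM in the other heart libraries.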
